A study of Mus musculus with 16 samples.

Results

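Mcpt8, Prss34, Cpa3, Fcer1a, Ms4a2, Gata2, Il4, Il13, Hdc and Cyp11a1 are 10 genes known from basophils and mast cells. They were taken by name from the 20200 genes of a count table of myeloid cells sorted from the knee after anterior cruciate ligament reconstruction (ACLR), in which a torn or cut ligament is replaced by a tendon graft drawn through drilled bone tunnels. They were chosen by name and with their counts in these libraries in view, selected on their levels across the 8 groups of population and day. Their levels, fold changes and calls are therefore given as a description, and no p-value of a single member is printed. The calls, and a count of members by unadjusted p, rest on p-values from these same libraries and are part of that description. All 10 were among the 11998 genes tested, which had to reach a group mean of 3 CPM (counts scaled by library size) somewhere. Il13 met this through the F4/80- cells of day 14 alone, and 9 of the 10 genes, all but Hdc, stayed under it in the CX3CR1+ macrophages on both days.

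The mice were wild-type (WT) male C57BL/6 mice aged 12 weeks, and every group had undergone ACLR, with no group of unoperated tissue among these libraries. Tissue at the interface of graft and bone was taken on day 1 or day 14, and live, lineage-negative CD45+ CD11b+ cells were sorted. The 4 populations were F4/80- cells (Ly6G-), CD9+ macrophages (Ly6G- F4/80+ CD9+), CX3CR1+ macrophages (Ly6G- F4/80+ CX3CR1+ CD9-) and neutrophils (Ly6G+ Ly6C+). Each population had 2 libraries on each day, 16 in all, each from a pool of 5 to 7 mice, so the spread between replicates is a spread between pools. In the study's flow cytometry of this tissue the lineage markers included c-kit, which mature mast cells carry, and CD34, known from progenitors, so a lineage-negative gate removes cells with either at the surface. No population was selected on a basophil marker, and the rare cells with both CD9 and CX3CR1 were sorted with the CD9+ macrophages.

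Basophils are short-lived granulocytes of the blood, and mast cells are their long-lived counterparts in tissue. Both display the high-affinity IgE receptor, store histamine and proteases in granules, and release IL-4 and IL-13, the cytokines of type 2 immunity, when the receptor is cross-linked. The factor GATA-2 maintains both lineages. In mice, mast cell protease 8 (Mcpt8) and the tryptase-like Prss34 (mast cell protease 11) are made by basophils in spite of their names, whereas carboxypeptidase A3 (Cpa3) belongs to both cells. Mouse basophils are known to be CD11b+ and to lack F4/80. Mature mast cells carry c-Kit.

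The 250 bases upstream of the start of the 3 proteases and of both IgE receptor chains are shown here, since these are the gene products that define the cells. They were read from RefSeq on build GRCm38.p6 (mm10), 5′ to 3′ on the strand of the gene: Mcpt8 from chr14:56085198-56085447 (minus strand), Prss34 from chr17:25298144-25298393 (plus), Cpa3 from chr3:20242182-20242431 (minus), Fcer1a from chr1:173227230-173227479 (minus) and Ms4a2 from chr19:11623720-11623969 (minus). Capitals mark a GATA word on either strand, which is AGATAA or the variant AGATAG, or with another first base TGATAA or the variant TGATAG, the core letters that GATA factors are known to bind.
Mcpt8: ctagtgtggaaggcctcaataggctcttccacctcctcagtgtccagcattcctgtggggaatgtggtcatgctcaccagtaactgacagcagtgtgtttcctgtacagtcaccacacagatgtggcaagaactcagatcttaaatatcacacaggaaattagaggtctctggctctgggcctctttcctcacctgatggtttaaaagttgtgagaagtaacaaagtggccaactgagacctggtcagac
Prss34: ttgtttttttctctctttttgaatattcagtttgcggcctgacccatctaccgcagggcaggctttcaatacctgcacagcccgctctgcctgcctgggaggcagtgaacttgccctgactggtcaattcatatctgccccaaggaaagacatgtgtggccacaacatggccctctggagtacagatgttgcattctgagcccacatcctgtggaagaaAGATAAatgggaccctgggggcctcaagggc
Cpa3: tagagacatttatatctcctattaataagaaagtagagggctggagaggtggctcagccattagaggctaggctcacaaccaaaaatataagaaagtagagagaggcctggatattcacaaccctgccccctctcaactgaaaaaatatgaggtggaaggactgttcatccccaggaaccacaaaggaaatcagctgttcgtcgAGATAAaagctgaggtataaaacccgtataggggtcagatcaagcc
Fcer1a: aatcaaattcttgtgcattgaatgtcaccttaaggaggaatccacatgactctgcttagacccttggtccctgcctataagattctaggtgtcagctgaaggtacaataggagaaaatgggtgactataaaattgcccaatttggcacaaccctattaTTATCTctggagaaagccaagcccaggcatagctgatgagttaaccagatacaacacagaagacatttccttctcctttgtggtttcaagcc
Ms4a2: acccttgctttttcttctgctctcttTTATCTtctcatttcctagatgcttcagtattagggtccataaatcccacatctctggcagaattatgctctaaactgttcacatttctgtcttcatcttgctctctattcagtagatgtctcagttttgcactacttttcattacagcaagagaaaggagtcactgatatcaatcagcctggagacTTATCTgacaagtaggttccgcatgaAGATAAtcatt

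Prss34 held 1 such word, with its first base at -31 counted from the start, Cpa3 held 1 at -46, Fcer1a 1 at -92 and Ms4a2 3. Mcpt8 held 0 GATA words and 2 RUNX words (TGTGGT or TGCGGT, either strand, no overlap with a GATA word). Il13, Il4 and Hdc held 1 GATA word each in 1 of their windows, at -81, -80 and -221, 1 of the windows of Cyp11a1 held 1, and the windows of Gata2 held none. The RefSeq starts of these windows were not always those of the gene positions given with the levels, which come from a Gencode annotation: they lay 1331 bases apart for the Il4 window with the word, 621 for Hdc, and 8387 and 8541 for the windows of Cyp11a1. In all, 8 of the 13 RefSeq windows of the members (61.5%) held a GATA word, against 8718 of 32851 windows of the same length (26.5%). RUNX words were in 5 of the 13 windows (38.5%), against 18.6% of all windows. A match gives letters and not a bound site, and binding was not measured.

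The sort was visible in the RNA. Adgre1, which encodes F4/80, lay at 8.48 to 13.9 CPM in F4/80- cells and at 120 to 216 CPM in CD9+ macrophages. The 2 CD9+ libraries of day 1 were the least alike of any replicate pair (Pearson r of log2 CPM over tested genes 0.935, against 0.977 to 0.988 in the other 7 pairs), which touches every comparison that uses them. Total counts were between 9233952 and 19814119 per library.

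The proteases were the members with the highest level per length in the F4/80- cells. Mcpt8 (chr14:56082166-56085273, minus strand) was at 227 and 189 CPM on day 1 and at 402 and 362 CPM on day 14 in the F4/80- libraries. In the CD9+ macrophages it was at 29.9 and 23.4 CPM on day 1 and at 69.2 and 52.4 CPM on day 14. CX3CR1+ macrophages had 0 and 4 reads on day 1 and 3 and 6 reads on day 14, and neutrophils had 25 and 7 reads, then 9 and 0. The order was therefore F4/80- above CD9+ above the other populations on both days, with no overlap between F4/80- cells and CD9+ macrophages or between the days within either.

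Prss34 (chr17:25298394-25300165, plus strand) showed the same order at a higher level, with 353 and 285 CPM on day 1 and 722 and 621 CPM on day 14 in F4/80- cells. CD9+ macrophages had 59.1 and 43.1 CPM on day 1 and 113 and 88.1 CPM on day 14. At most 13 Prss34 reads were counted in any CX3CR1+ library and at most 36 in any neutrophil library. Cpa3 (chr3:20215620-20242181, minus strand), which trims peptides in the granule, was at 130 and 112 CPM on day 1 and at 212 and 183 CPM on day 14 in F4/80- cells. Its CD9+ values were 23.6 and 14.3 CPM on day 1 and 37.0 and 46.1 CPM on day 14, and at most 6 reads were counted in a CX3CR1+ and 19 in a neutrophil library. Divided by transcript length, the day 14 means of F4/80- cells were 551 CPM per kb for Prss34, 383 for Mcpt8 and 130 for Cpa3.

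The IgE receptor chains had the same order of populations. Fcer1a (chr1:173221284-173227214, minus strand) encodes the chain that binds IgE, and stood at 28.2 and 19.0 CPM on day 1 and at 35.6 and 35.2 CPM on day 14 in F4/80- cells. In CD9+ macrophages its day 1 libraries were far apart, at 5.62 and 0.411 CPM (80 and 4 reads), and its day 14 libraries had 7.98 and 4.65 CPM, so the days overlapped. CX3CR1+ macrophages had 0 reads in both day 1 libraries and 0 and 2 reads on day 14. Ms4a2 (chr19:11615523-11623719, minus strand) encodes the beta chain, which amplifies the signal. Its F4/80- values were 156 and 107 CPM on day 1 and 165 and 145 CPM on day 14, which overlap, and its CD9+ values were 22.1 and 5.75 CPM, then 28.5 and 21.4 CPM. At most 2 Ms4a2 reads were counted in a CX3CR1+ library, at most 23 in a neutrophil library, and at most 4 Fcer1a reads in a neutrophil library. The replicate 2 library of the day 1 CD9+ macrophages was the lowest of the 4 CD9+ libraries for Fcer1a, Ms4a2, Gata2, Il4, Hdc, Cpa3, Mcpt8 and Prss34.

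Gata2 (chr6:88193891-88207032, plus strand), the transcription factor of the lineage, was at 284 and 265 CPM on day 1 and at 408 and 413 CPM on day 14 in F4/80- cells. CD9+ macrophages had 32.4 and 14.9 CPM on day 1 and 83.7 and 55.1 CPM on day 14. The days did not overlap in either population, and at most 6 reads were counted in any CX3CR1+ and 29 in any neutrophil library. Per length, Gata2 averaged 76.0 CPM per kb in the F4/80- cells of day 14, Ms4a2 55.2 and Fcer1a 35.4.

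**Figure D1:**
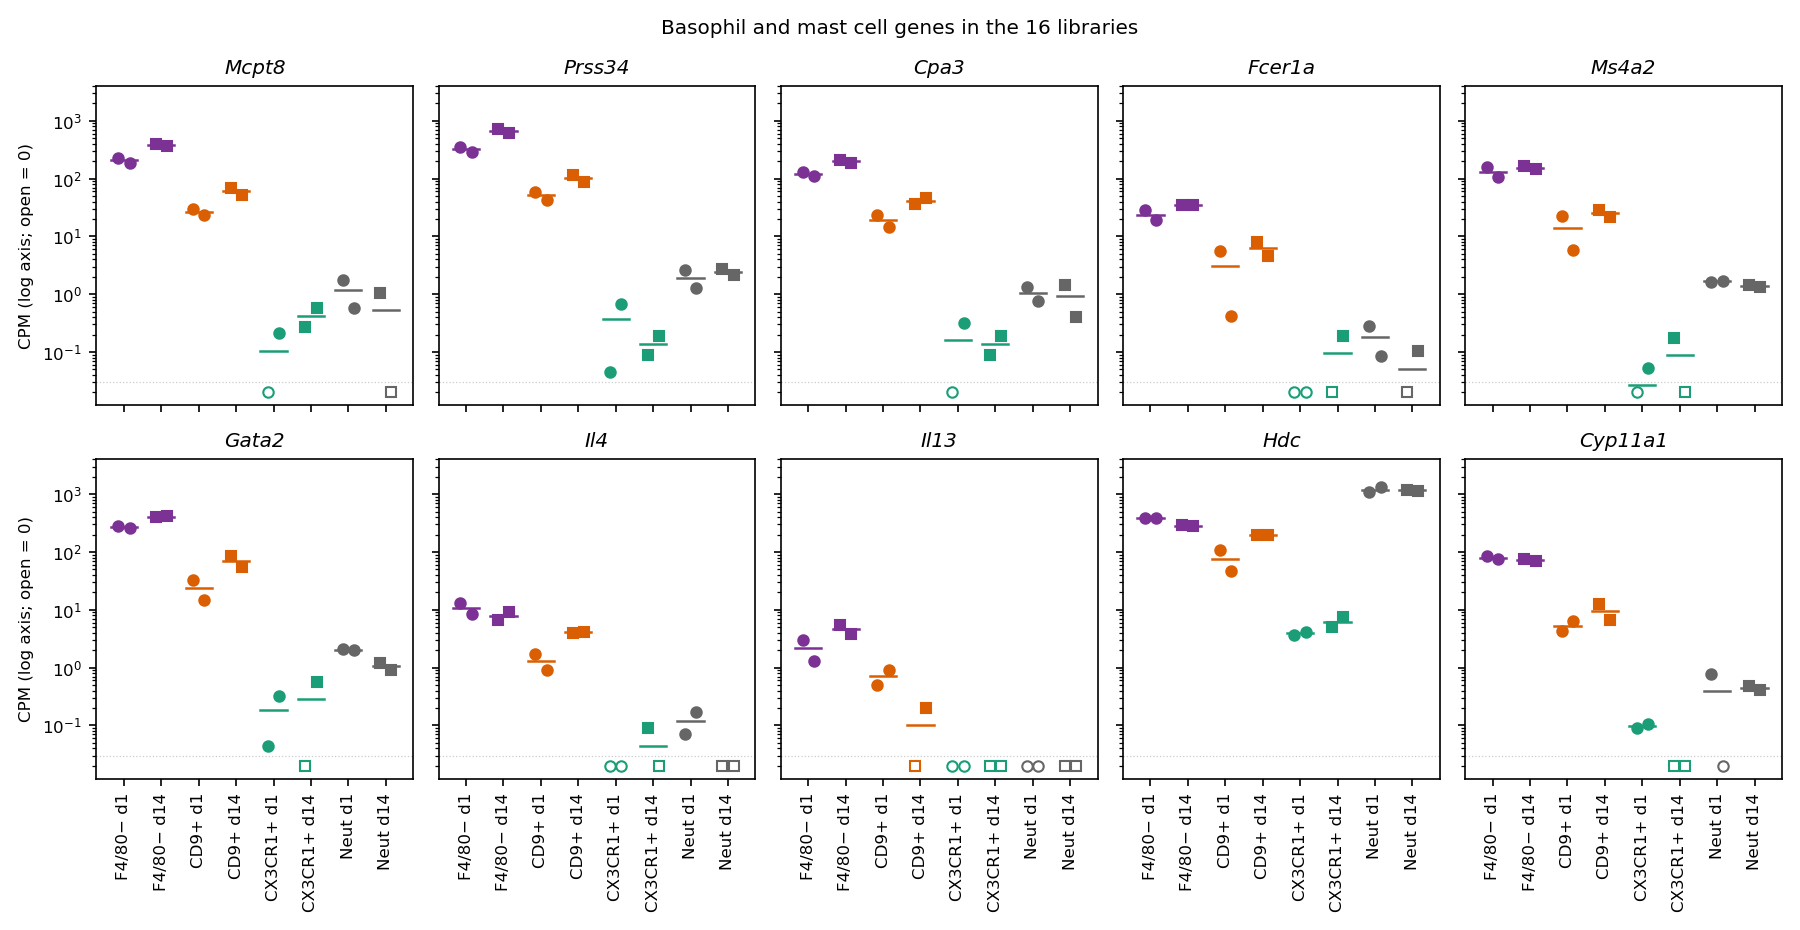
Level of each of the 10 genes in each of the 16 libraries, in CPM on a log axis, with circles for day 1, squares for day 14, open symbols for libraries at 0 and a bar at each mean of 2 libraries. In 9 panels the F4/80- libraries are on top and the CX3CR1+ and neutrophil libraries near the bottom, whereas in the Hdc panel the neutrophils are highest.

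The cytokine genes were low. Il4 (chr11:53602982-53618669, minus strand) was at 13.1 and 8.29 CPM on day 1 and at 6.78 and 9.03 CPM on day 14 in F4/80- cells, which overlap. In the CD9+ macrophages it had 1.69 and 0.925 CPM on day 1 and 3.99 and 4.14 CPM on day 14, without overlap. From 0 to 2 Il4 reads were counted in any CX3CR1+ or neutrophil library. Il13 (chr11:53631324-53634702, minus strand) had 3.0 and 1.29 CPM on day 1 and 5.44 and 3.76 CPM on day 14 in F4/80- cells. CD9+ macrophages had 7 and 9 Il13 reads on day 1 and 0 and 2 on day 14, and all CX3CR1+ and neutrophil libraries were at 0. The genes lie 12655 bases apart in the type 2 cytokine cluster, and per length the F4/80- mean of day 1 was 8.73 CPM per kb for Il4 and 1.78 for Il13.

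Hdc and Cyp11a1 encode enzymes, and Hdc departed from the common order. Hdc (chr2:126593667-126619299, minus strand), histidine decarboxylase, makes histamine and is also known from neutrophils. Neutrophils had 1092 and 1320 CPM on day 1 and 1196 and 1135 CPM on day 14, above every other library. F4/80- cells had 381 and 385 CPM on day 1 and 292 and 282 CPM on day 14, and CD9+ macrophages had 107 and 46.6 CPM, then 199 and 198 CPM. Hdc was thus lower on day 14 in F4/80- cells and higher on day 14 in CD9+ macrophages, with no overlap between days in either. Cyp11a1 (chr9:58006411-58027023, plus strand) cleaves the side chain of cholesterol, the first step of steroid synthesis. It was at 84.8 and 75.6 CPM on day 1 and 76.2 and 70.3 CPM on day 14 in F4/80- cells, which overlap, and at 4.29 and 6.27 CPM, then 12.4 and 6.77 CPM in CD9+ macrophages. At most 2 Cyp11a1 reads were counted in a CX3CR1+ library and at most 11 in a neutrophil library. Per length, Hdc in neutrophils averaged 189 and then 182 CPM per kb, against 60.0 and 44.9 in F4/80- cells, where Cyp11a1 averaged 16.7 and 15.2.

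Over the 16 libraries, the 36 pairs among the 9 genes other than Hdc had Pearson correlations of log2 CPM between 0.831 (Il4 with Il13) and 0.994 (Prss34 with Cpa3), with a median of 0.959. Hdc correlated with these 9 at 0.233 to 0.561. These values describe libraries that fall into populations far apart in level, and the replicates share a population and a day.

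The question of where these genes were read most was put first, as F4/80- cells against each other population in an edgeR model of all 8 groups. A call required a Benjamini-Hochberg adjusted p below 0.05 together with a difference of 1 or more on the log2 scale. On day 1, 9 members were called higher in F4/80- cells than in CD9+ macrophages, where 6.5% of all tested genes were called higher, and Il13 was not called. On day 14, 8 were called higher (1.33% of all tested genes), and Il4 and Hdc were not. The median log2 fold change of the members was 2.92 on day 1 and 2.60 on day 14, against 0.02 and 0.04 over all tested genes. Since the members were chosen for such levels, these counts describe the choice.

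In size, Cyp11a1 differed most between F4/80- cells and CD9+ macrophages on day 1, by 3.94 ± 0.38 (log2 fold change ± SE), a ratio of mean CPM of 15.2. Gata2 followed with 3.52 ± 0.33 (11.6-fold) and Ms4a2 with 3.20 ± 0.40. Mcpt8 was 7.80-fold higher (2.96 ± 0.32) on day 1 and 6.28-fold higher (2.65 ± 0.31) on day 14, and Prss34 gave 2.64 ± 0.27 and 2.74 ± 0.27. Il4 and Hdc lay closer on day 14 than on day 1. The Il4 values were 3.0 ± 0.51 on day 1 and 0.96 ± 0.47 on day 14, and the Hdc values were 2.31 ± 0.26 and 0.53 ± 0.25. Il13 had the reverse order, 1.62 ± 0.81 on day 1 and 5.42 ± 1.08 on day 14, on at most 9 reads per CD9+ library.

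The day 1 sizes leaned on which CD9+ library was used. Without replicate 1 of the day 1 CD9+ macrophages the log2 fold change was 4.19 for Gata2, 4.50 for Ms4a2, 5.80 for Fcer1a and 3.03 for Hdc, and without replicate 2 it was 3.08, 2.57, 2.07 and 1.84. All of these kept their call. On day 14, Il13 was at 8.99 without replicate 2 of the CD9+ macrophages and lost its call without replicate 1 (4.45). The Fcer1a call of day 14 was lost without replicate 2 of the CD9+ macrophages (2.13) and without either F4/80- library (2.46 and 2.49).

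Against CX3CR1+ macrophages, all 10 members were called higher in F4/80- cells on both days (background 10.8% of tested genes on day 1 and 10.5% on day 14). Where the CX3CR1+ libraries were all at 0, the fold is a lower bound set by 3 reads per library. On day 1 Fcer1a was at least 163-fold, Il4 at least 73.8-fold and Il13 at least 14.8-fold higher in F4/80- cells, and on day 14 Cyp11a1 was at least 267-fold higher. Against neutrophils, 9 members were called higher on each day (background 27.9% and 28.3%) and Hdc was called lower (background 21% and 20%), with log2 fold changes of -1.65 ± 0.25 on day 1 and -2.02 ± 0.26 on day 14.

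CD9+ and CX3CR1+ macrophages are both F4/80+, and the members were read in the former. On day 1 all 10 were called higher in CD9+ than in CX3CR1+ macrophages (background 6.07%), and on day 14 9 were, all but Il13 (background 9.35%). The bounds on day 1 were at least 20.8-fold for Fcer1a, 9.0-fold for Il4 and 4.88-fold for Il13, and on day 14 at least 34.8-fold for Cyp11a1.

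The change with time was then compared within each population. In F4/80- cells Prss34 alone was called, higher on day 14 (1.08 ± 0.26), where 1.13% of all tested genes were called higher. Without any 1 of the 4 F4/80- libraries, 0 members were called. Mcpt8 stood at 0.88 ± 0.29, Cpa3 at 0.71 ± 0.28, Gata2 at 0.58 ± 0.29 and Hdc at -0.42 ± 0.25 in the same comparison, and the median of the members was 0.58 against 0.01 for all tested genes. In CD9+ macrophages 5 members were called higher on day 14 (4.83% of all tested genes were), namely Gata2 (1.54 ± 0.31), Il4 (1.60 ± 0.52), Hdc (1.36 ± 0.26), Mcpt8 (1.19 ± 0.31) and Cpa3 (1.12 ± 0.30), and the median was 1.05 against 0.02. Prss34 (0.98 ± 0.26), Fcer1a (0.99 ± 0.65), Cyp11a1 (0.88 ± 0.38), Ms4a2 (0.81 ± 0.39) and Il13 (-2.70 ± 1.23) were not called. That count rested on single libraries: it was 8 without replicate 1 of the day 1 CD9+ macrophages, 2 without replicate 2 of that day and 1 without replicate 1 of day 14. Gata2 and Hdc were at 2.20 and 2.06 without replicate 1 of day 1 and at 1.10 and 0.89 without replicate 2. The Il4 call was also lost with the replicate number as a block (log2 fold change 1.67). In CX3CR1+ macrophages and in neutrophils 0 members were called by edgeR or by DESeq2, and 0 had an unadjusted p under 0.05 in edgeR, where 5.89% and 14.1% of all tested genes were called. Most members had too few reads there for a difference to be detectable.

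**Figure D2:**
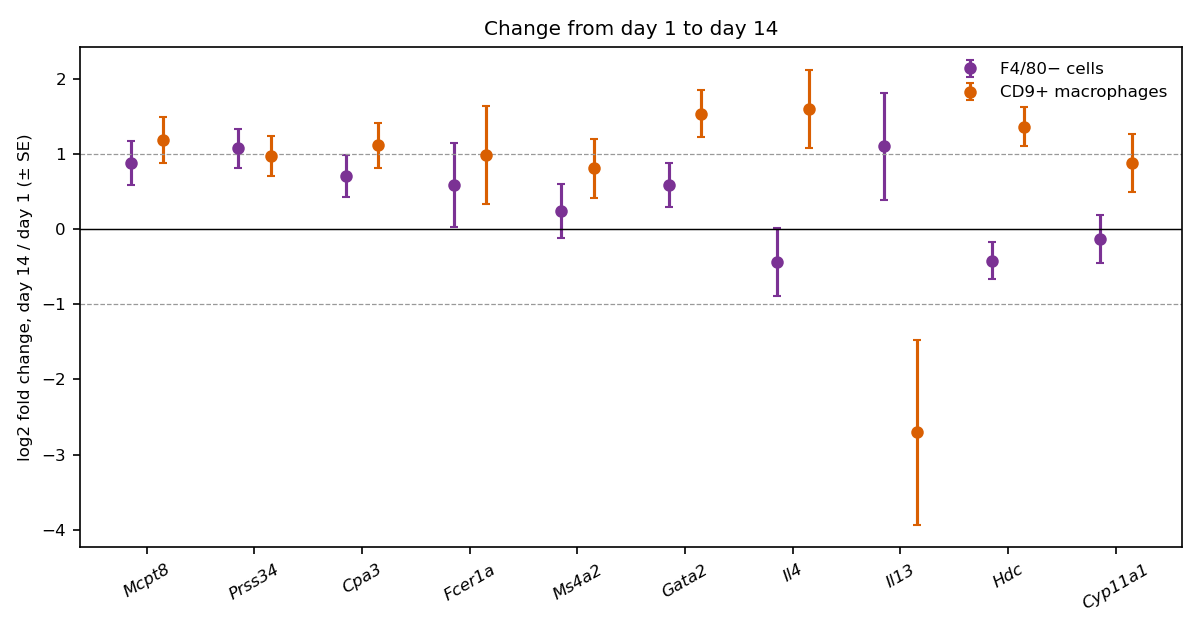
Log2 fold change from day 1 to day 14 of the 10 genes in F4/80- cells and in CD9+ macrophages, as points with bars of ± SE from the edgeR model, with dashed lines at a log2 fold change of 1 in either direction. Hdc and Il4 lie above 1 in CD9+ macrophages and below 0 in F4/80- cells, and Il13 lies at 1.10 in F4/80- cells and at -2.70 in CD9+ macrophages.

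The level in CD9+ macrophages was next expressed as a percentage of the mean of the F4/80- cells of the same day. For the 9 members other than Hdc the median of this percentage was 16.8% and 8.64% in the day 1 libraries and 18.4% and 13.4% in those of day 14. Mcpt8 lay at 14.4% and 11.3% on day 1, then at 18.1% and 13.7%, and Prss34 at 18.5% and 13.5%, then 16.9% and 13.1%. Members far from these were Hdc, at 69.2% and 69.0% on day 14, and Il4, at 50.5% and 52.4% on day 14 after 15.8% and 8.64% on day 1. Il13, on at most 9 reads, was at 22.96% and 43.1% on day 1 and at 0% and 4.39% on day 14. Fcer1a had 1.74% in replicate 2 of day 1, against 23.8% in replicate 1, and Cyp11a1 was low, at 5.35% and 7.81% on day 1. The same medians were at most 0.102% in CX3CR1+ libraries and at most 0.857% in neutrophil libraries. In bulk samples, fewer cells of a type and less RNA per cell cannot be told apart, so these percentages are not shares of cells.

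**Figure D3:**
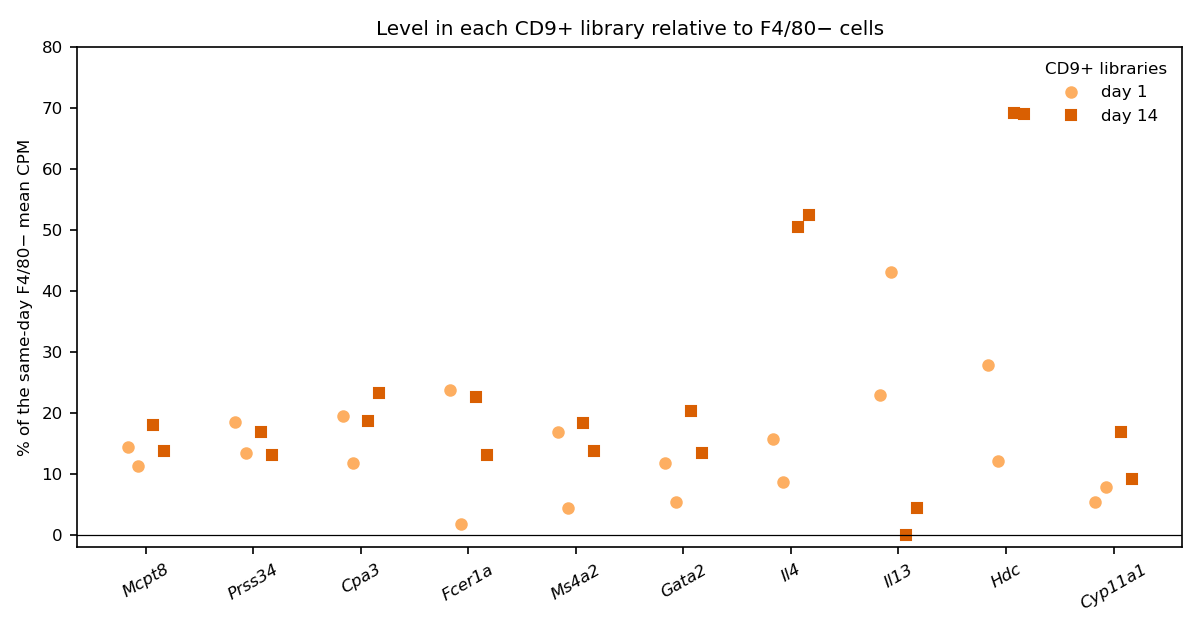
Level of the 10 genes in each CD9+ library as a percentage of the mean CPM of F4/80- cells of the same day, with circles for day 1 and squares for day 14. The points of Mcpt8, Prss34 and Cpa3 lie between 11.3% and 23.3%, and the day 14 points of Hdc (69.2% and 69.0%) and Il4 (50.5% and 52.4%) lie above the others.

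Reads of the members were also set against the Mcpt8 reads of the same library. Per 100 Mcpt8 reads there were 156 and 151 Prss34 reads in the day 1 and 180 and 172 in the day 14 F4/80- libraries, and 198, 184, 164 and 168 in the CD9+ libraries in the same order. Ms4a2 gave 68.7 and 56.4 reads on day 1 and 41.1 and 40.2 on day 14 in F4/80- cells, and 73.9, 24.6, 41.2 and 40.8 in CD9+ macrophages. The day 14 ratios of Ms4a2 and Prss34 were therefore near each other in the F4/80- and CD9+ sorts. Il4 gave 1.69 and 2.49 reads per 100 Mcpt8 reads in F4/80- cells on day 14 and 5.77 and 7.90 in CD9+ macrophages. Hdc gave 72.6 and 77.8 reads in F4/80- cells on day 14 and 287 and 378 in CD9+ macrophages. For Il4 and Hdc the F4/80- and CD9+ ratios of day 14 were apart, whereas those of day 1 overlapped. On day 1 Il4 gave 5.79 and 4.38 reads in F4/80- cells and 5.65 and 3.95 in CD9+ macrophages. Hdc gave 168 and 204 reads in F4/80- cells and 358 and 199 in CD9+ macrophages on that day. The day 14 ratios of Prss34, Cpa3, Cyp11a1 and Il13 also had no overlap between the sorts, whereas those of Fcer1a, Ms4a2 and Gata2 overlapped. Cyp11a1 was apart on day 1 too, with 37.4 and 39.9 reads in F4/80- cells and 14.4 and 26.8 in CD9+ macrophages.

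Other genes of these cells were taken from lists written with earlier results of these data known, and were tested. Their p-values are therefore not an independent check of the members. Of the 13 basophil genes outside the members, 12 were tested and 1 (Ptgdr2) was not analysed here. On day 1, 6 were higher in F4/80- cells than in CD9+ macrophages and 1 was lower, beside 6.5% and 8.87% of all tested genes, with a median log2 fold change of 0.91. Cd200r3, an activating receptor of basophils, was at 67.6 to 83.8 CPM in F4/80- cells and 2.47 to 4.99 CPM in CD9+ macrophages (log2 fold change 4.30 ± 0.41, edgeR adjusted p = 3.92e-06). Slc18a2, which loads amines into granules, differed by 3.89 ± 0.75 (adjusted p = 0.00157). The integrin gene Itga2 (CD49b) differed by 2.09 ± 0.45 (adjusted p = 0.00307). The IL-18 receptor genes Il18r1 (3.08 ± 0.34, adjusted p = 1.51e-05) and Il18rap (2.03 ± 0.13, adjusted p = 1.72e-07) and the leukotriene enzyme gene Alox5 (1.54 ± 0.20, adjusted p = 4.2e-05) were also higher. The chemokine receptor gene Ccr3, known from eosinophils as well as basophils, went the other way, with -3.17 ± 0.46 (adjusted p = 0.000127), and lay at 16.1 to 33.4 CPM in the CD9+ libraries of day 1.

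On day 14, 4 of the 12 were higher in F4/80- cells (background 1.33%) and 2 were lower (6.33%), with a median log2 fold change of 0.51. Cd200r3 was again higher (3.33 ± 0.38, adjusted p = 3.4e-05), as was Il18r1 (2.32 ± 0.33, adjusted p = 0.000279), and Ccr3 was lower (-3.88 ± 0.48, adjusted p = 4.79e-05). Those 3 stayed called without any 1 library. The count of 6 became 3 without replicate 2 of the day 14 CD9+ macrophages and without either day 14 F4/80- library, since the calls of Itga2, Slc18a2 and Ltc4s were lost. Over time, 0 of the 12 changed in F4/80- cells by edgeR or DESeq2, and 3 had an unadjusted p under 0.05. In CD9+ macrophages 2 rose (4.83% of all tested genes did) and 1 fell (3.43%), a count of 3 that became 5 without replicate 1 and 1 without replicate 2 of the day 1 CD9+ macrophages.

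Against CX3CR1+ macrophages, 7 of the 12 basophil genes were higher in F4/80- cells on each day (background 10.8% and 10.5%). On both days 0 were lower (background 10.3% and 11%). Cd200r3 had 0 reads in the day 1 CX3CR1+ libraries, a difference of at least 522-fold, and differed by 8.07 ± 0.57 on day 14 (adjusted p = 1.12e-07). CD9+ macrophages had 6 of the 12 higher than CX3CR1+ macrophages on day 1 and 8 on day 14 (background 6.07% and 9.35%). Among them was Ccr3 with 5.55 ± 0.55 (adjusted p = 6.97e-06) and 7.07 ± 0.64 (adjusted p = 1.08e-06). Against neutrophils, 4 were higher in F4/80- cells on each day (Cd200r3, Itga2, Slc18a2 and the IL-3 receptor gene Il3ra), beside 27.9% and 28.3% of all tested genes. On day 1, 4 were lower, and on day 14, 3 were (background 21% and 20%), so both shares of the 12 lay near those of all genes.

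Of 15 mast cell genes, 4 were in the analysed table (Kit, Mitf, Hpgds and Gzmb), and the other 11, which include the proteases and tryptases of connective tissue mast cells, were not analysed here. The mast cell side of the members' name was therefore not checked with defining genes. On day 1, 2 of the 4 were higher and 2 lower in F4/80- cells than in CD9+ macrophages, a count of 4 that became 2 without replicate 2 of either group, and on day 14 1 was higher and 2 lower. Among all tested genes 6.5% were higher and 8.87% lower on day 1, and 1.33% and 6.33% on day 14. Mitf, a factor of mast cells that macrophages also express, was lower in F4/80- cells than in CD9+ macrophages on day 1 (-2.79 ± 0.24, adjusted p = 1.11e-06) and day 14 (-2.63 ± 0.25, adjusted p = 3.08e-06). Hpgds, the prostaglandin D synthase, was lower on day 14 (-3.89 ± 0.62, adjusted p = 0.000508). Gzmb, a granzyme gene of the same chymase cluster as Mcpt8, had 0 reads in the day 1 CD9+ libraries and 6.68 to 8.16 CPM in F4/80- cells, at least 29.6-fold more (adjusted p = 0.000399). Kit, the receptor of stem cell factor, was at 30.6 to 32.2 CPM on day 1 and 63.3 to 78.7 CPM on day 14 in F4/80- cells and at 5.14 and 21.7 CPM on day 1 and 44.6 to 55.7 CPM on day 14 in CD9+ macrophages. In neutrophils Kit lay at 14.4 to 61.5 CPM. Over time, 3 of the 4 rose in CD9+ macrophages (background 4.83%), namely Kit (1.87 ± 0.43, edgeR adjusted p = 0.00857), Hpgds (2.56 ± 0.57, adjusted p = 0.00659) and Gzmb, which went from 0 reads to 5 and 34 (adjusted p = 0.00826). The calls of Kit and Gzmb were lost without replicate 1 of the day 14 CD9+ macrophages and that of Hpgds without replicate 2, and 1 call was left with only the 2 groups compared. In F4/80- cells 0 of the 4 were called over time by edgeR or DESeq2, and 1 had an unadjusted p under 0.05.

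**Figure D4:**
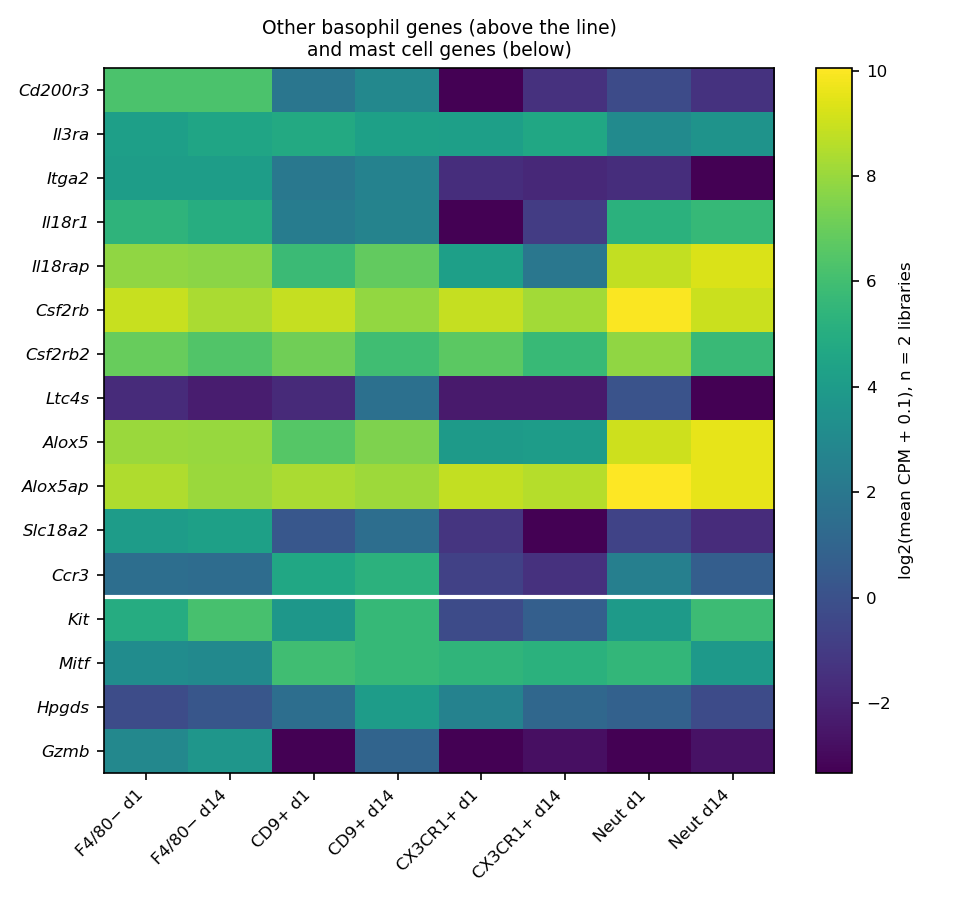
Mean level of 12 basophil genes outside the members and of 4 mast cell genes in the 8 groups of 2 libraries, on a log2 CPM colour scale with a small constant added. Cd200r3, Itga2 and Slc18a2 are brightest in the F4/80- columns, Ccr3 in the CD9+ columns, and Csf2rb and Alox5ap are bright in every column.

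The 14 genes that carry the IgE signal were tested as well. Fcer1g, the gamma chain that the IgE receptor shares with other Fc receptors, lay between 259 and 906 CPM in all 16 libraries. Lat, an adaptor of the receptor's kinases, was higher in F4/80- cells than in CD9+ macrophages on day 14 (2.73 ± 0.68, adjusted p = 0.0142). That call was lost without replicate 2 of the day 14 CD9+ macrophages (1.97) and without either F4/80- library (2.60 and 2.83). With time, 0 of the 14 were called by edgeR or DESeq2 in F4/80- cells or in CD9+ macrophages, with 1 and 6 at an unadjusted p under 0.05; in CD9+ macrophages 1 was called without replicate 1 of day 1.

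Of 12 transcription factors of the lineage, 11 were tested. On day 1, 1 was higher and 1 lower in F4/80- cells than in CD9+ macrophages (background 6.5% and 8.87%), and on day 14 1 was higher and 2 lower (1.33% and 6.33%), so the day 1 shares were near those of all genes. Without replicate 2 of the day 1 CD9+ macrophages 4 were called on day 1, and without replicate 1 of the day 1 F4/80- cells 1 was. Without any 1 of the 4 libraries of day 14, 0 or 1 were called on that day. Tal1, a partner of GATA factors, was higher in F4/80- cells than in CD9+ macrophages on day 1 (1.89 ± 0.39, adjusted p = 0.00202), at 8.29 to 8.60 CPM. Cebpa, a factor of granulocyte progenitors, rose with time in F4/80- cells from 25.9 and 29.9 CPM to 124 and 125 CPM (2.16 ± 0.31, adjusted p = 0.000708), the only 1 of the 11 called there. It was also called higher with time in CX3CR1+ macrophages (background 2.45%) and in CD9+ macrophages (4.83%). In CD9+ macrophages 3 of the 11 were called higher, Cebpa, Zfpm1 and Gata1. The Cebpa log2 fold change in CD9+ macrophages was 1.05 without replicate 2 of day 1 and 0.78 without replicate 2 of day 14. Gata1, which acts with Gata2, stood at 1.70 to 3.43 CPM in F4/80- cells and at 12.4 to 17.6 CPM in the day 14 CD9+ macrophages.

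Among the genes that handle histamine, 4 were tested. F4/80- cells had 3 of them higher than CD9+ macrophages at day 1, and 2 at day 14 (background 6.5% and 1.33%). The first count became 1 without replicate 1 of the day 1 F4/80- cells, and the second became 1 without any 1 of its 4 libraries. Hrh2, a histamine receptor gene, was higher in F4/80- cells than in CD9+ macrophages on day 1 (1.67 ± 0.19, adjusted p = 1.53e-05) and day 14 (1.29 ± 0.20, adjusted p = 0.00034), and was highest in neutrophils, at 96.3 to 120 CPM, like Hdc. Of the genes that act with Cyp11a1 in steroid synthesis, 3 were tested, and 0 were called between F4/80- cells and CD9+ macrophages on either day by edgeR or DESeq2. Across time, 0 were called in either population by either tool, with 0 and 1 at an unadjusted p under 0.05, and 1 was called in CD9+ macrophages without replicate 1 of day 1.

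The receptors for type 2 signals showed their own order. Of 18 genes, 10 were tested. At day 1, 1 was higher and 3 were lower in F4/80- cells than in CD9+ macrophages (background 6.5% and 8.87%). At day 14, 0 were higher and 2 were lower (background 1.33% and 6.33%). Il1rl1, the IL-33 receptor of basophils and mast cells, was higher in F4/80- cells than in CD9+ macrophages on day 1 (2.02 ± 0.35, adjusted p = 0.000585), at 28.2 to 31.7 CPM. Il4ra, the shared receptor chain for IL-4 and IL-13, was lower there (-1.51 ± 0.16, adjusted p = 7.16e-06). It fell from day 1 to day 14 in F4/80- cells (-1.09 ± 0.16, adjusted p = 0.000799), from 109 and 115 CPM to 50.8 and 54.3 CPM. It also fell in CD9+ macrophages (-2.22 ± 0.16, adjusted p = 1.63e-06), CX3CR1+ macrophages (-1.80 ± 0.16, adjusted p = 5.13e-06) and neutrophils (-1.77 ± 0.16, adjusted p = 1.26e-06). Il17rb, the IL-25 receptor, rose in CD9+ macrophages from 1.41 and 2.05 CPM to 24.1 and 27.9 CPM (3.92 ± 0.39, adjusted p = 1.63e-05), and on day 14 was lower in F4/80- cells (-3.30 ± 0.37, adjusted p = 1.97e-05).

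Of the genes that IL-4 and IL-13 are known to induce in macrophages, more were called lower than higher in F4/80- cells against CD9+ macrophages. On day 1, 7 of 13 tested were lower and 1 higher in F4/80- cells than in CD9+ macrophages (background 8.87% and 6.5%). On day 14, 6 were lower and 1 higher (background 6.33% and 1.33%). Of 6 macrophage and monocyte markers, 6 were also lower in F4/80- cells on day 1 and 5 on day 14. The summed level of the list's 14 genes in the table had another order, at 2092 to 2321 CPM in F4/80- cells and 4305 to 4444 CPM in CD9+ macrophages on day 1, but at 2694 to 2781 CPM and 1606 to 1970 CPM on day 14. Chil3, a chitinase-like protein gene, held most of the F4/80- sum, at 1718 to 2466 CPM. Arg1, arginase 1, was at 2168 and 2531 CPM in CD9+ macrophages and at 112 to 130 CPM in F4/80- cells on day 1 (-4.28 ± 0.21, adjusted p = 1.49e-08). In F4/80- cells it had 0 to 2 reads per library on day 14 and was called lower with time (adjusted p = 1.17e-09). Mrc1, the mannose receptor, differed by -2.56 ± 0.34 on day 1 (adjusted p = 5.69e-05), and Tgm2, a transglutaminase, fell with time in F4/80- cells (-2.88 ± 0.34, adjusted p = 0.000122). Arg1 and Tgm2 were also called lower with time in CD9+ macrophages, CX3CR1+ macrophages and neutrophils.

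Markers of other cell types moved with these comparisons. From day 1 to day 14 in CD9+ macrophages, 4.83% of all tested genes were called higher and 3.43% lower. Of 5 neutrophil markers, 2 were called higher there (Ly6g and Retnlg) and 1 lower (Mmp8). Their sum in CD9+ macrophages was 303 to 408 CPM on day 1 and 388 to 435 CPM on day 14. In F4/80- cells 3 of the 5 were called lower with time (Cxcr2, Mmp8 and Retnlg, background 2.18%) and 0 higher (1.13%). Their sum in F4/80- cells was 566 to 656 CPM on day 1 and 227 to 253 CPM on day 14. Of 3 tested megakaryocyte and platelet markers, 2 were called lower with time in CD9+ macrophages (Ppbp and Pf4) and 0 higher. The 9 eosinophil markers, summed, lay at 730 and 767 CPM in the CD9+ macrophages of day 1 and at 7512 and 12203 CPM on day 14. In F4/80- cells they summed to 72.1 and 72.5 CPM on day 1 and 141 and 179 CPM on day 14. With time, 3 of the 9 were called higher in F4/80- cells (Prg2, Prg3 and Epx, background 1.13%) and 3 in CX3CR1+ macrophages (2.45%). In neutrophils 5 were called higher (3.76%) and 1 lower (10.4%). All 9 were called higher on day 14 in CD9+ macrophages, the comparison in which Il17rb and 5 members were also higher, and 7 were without replicate 2 of day 14. The 7 progenitor markers summed to 2246 to 3070 CPM in F4/80- cells, 578 to 880 CPM on day 1 and 1147 to 1909 CPM on day 14 in CD9+ macrophages, 137 to 314 CPM in CX3CR1+ macrophages and 69.0 to 185 CPM in neutrophils, highest in F4/80- cells as were 9 members, and each was above 3 reads in every F4/80- library. Of 10 T cell and innate lymphoid markers 7 were in the table and summed to 3.01 to 10.4 CPM in all libraries. Cd3g, Trac, Cd4 and Icos were at or under 3 reads in every day 14 library of F4/80- cells, and Cd3d, Lck and Rora were not. On day 1 this held for Cd4 only, and the rest of the 7 passed 3 reads in at least 1 F4/80- library. In CD9+ macrophages the progenitor markers Mpo (1.25 ± 0.35, adjusted p = 0.0228) and Elane (1.17 ± 0.38, adjusted p = 0.0475) also rose with time, and neither call was kept without replicate 2 of day 1 or without replicate 1 of day 14. The part of eosinophil, progenitor, neutrophil and platelet RNA in these results was not tested.

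The tested genes outside the members whose log2 CPM over the 16 libraries correlated best with Mcpt8 were Cd200r3 (Pearson r 0.970), Nkg7 (0.967), Gimap1 (0.965), Lama5 (0.963), Elane (0.963), Itga2b (0.959), Mpo (0.959), Itga2 (0.957), Prkca (0.954) and Pecam1 (0.950). For Il4 they were Itga2 (0.967), Cdk6 (0.966), Cd200r3 (0.964), Mpo (0.963) and Elane (0.960). Mpo and Elane encode granule enzymes of promyelocytes. Mpo had means of 1743 and 2033 CPM in F4/80- cells on days 1 and 14 and 403 and 962 CPM in CD9+ macrophages. The ranking was not kept without the neutrophil libraries, since 0 of the 10 and 0 of the 5 recurred when the 12 other libraries were ranked alone. In those 12 the 10 highest correlations with Mcpt8 lay between 0.988 and 0.993, and those of the genes named above are not given here.

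Neighbours in the genome did not all share the pattern. Ctsg (cathepsin G), 14608 bases from Mcpt8, was at means of 146 and 114 CPM in F4/80- cells and 41.6 and 45.1 CPM in CD9+ macrophages and is 1 of the progenitor markers above. Prss28, the tryptase-like gene 8481 bases from Prss34 (chr17:25308646-25311876), had means of 2.0 and 1.96 CPM in F4/80- cells, 0 and 0.348 CPM in CD9+ macrophages and 0 in the other groups. Rad50, which lies beside Il13, and Kif3a, 1015 bases from Il4, were read in all 8 groups, with Rad50 at means of 56.0 and 75.1 CPM in CD9+ macrophages.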

How the data were processed

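RNA-seq was measured in 16 libraries of sorted myeloid cells, 4 populations on 2 days with 2 pools of mice each. The authors made SMART-Seq Stranded libraries, removed adapters with Cutadapt, mapped the reads to mm10 with STAR, counted those in exons of the Gencode annotation and deposited the counts per gene without normalization; the strand setting of the counting is not given in the sources used here. Total counts per library were 10587857 to 19814119 on day 1 and 9233952 to 12721779 on day 14, and a gene with 3 reads or fewer was treated as at the limit of detection. Reads carry no molecular identifiers, so such limits cover counting error only.

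CPM were computed with TMM factors. Genes with a group mean of at least 3 CPM in at least 1 group were tested with edgeR 4.0.16 (quasi-likelihood test, R 4.3.3) in a model of 8 group means. Calls needed a Benjamini-Hochberg adjusted p under 0.05 over all tested genes and a log2 difference of 1 or more in size, and differences in the change over time were interaction terms. A single gene in 2 against 2 libraries cannot go below p = 0.333 in an exact permutation test. The steps were tested on simulated data.

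The members, the gene lists and the tests were chosen with earlier results of these data known. The rule for named genes was all members, list genes with calls first and the largest fold changes before others (at most 10 a list), the 10 genes most correlated with Mcpt8 and the 5 most correlated with Il4 (log2 CPM with a prior count of 2), and neighbours of Mcpt8, Prss34, Il4 and Il13. From these, genes whose calls held without any 1 library were preferred. Gene positions and lengths came from a Gencode annotation of GRCm38 and upstream sequences from RefSeq, so starts can differ, by 0 to 8541 bases among the members' windows. Counts of near-identical neighbours such as Csf2rb and Csf2rb2 are uncertain. Alternatives were DESeq2 1.42.0, other scalings and filters, a replicate block, only the groups compared, no minimum fold change and leaving out each library, which leaves 1 library in a group that is assumed to vary like the others. A result of the IgE signalling list is not reported here.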

Additional observations from a re-analysis of the deposited data

Results flagged for a closer look

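Genes of the lists were singled out here because their change from day 1 to day 14 differed between F4/80- cells and another population, by an interaction term of the edgeR model at a Benjamini-Hochberg adjusted p under 0.05 and a difference of at least 1 on the log2 scale. The members were left out, since they were chosen on such values. Against CD9+ macrophages, 1.68% of all tested genes passed, and 4 list genes did. Il17rb rose in CD9+ macrophages and not detectably in F4/80- cells, with a difference (F4/80- minus CD9+) of -3.95 (adjusted p = 0.00222), and this call held without any 1 library. Arg1, at -4.49 (adjusted p = 0.00432), was lost without replicate 1 of the day 14 F4/80- cells and rests on 0 to 2 reads in that group. Il18rap, at -1.13 (adjusted p = 0.007), was lost without replicate 2 of the day 1 CD9+ macrophages or replicate 1 of the day 14 F4/80- cells. Il4ra fell in both, and less in F4/80- cells, by 1.13 (adjusted p = 0.0193), a call kept in 1 of 8 fits that left out a library.

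Against CX3CR1+ macrophages, where 1.05% of tested genes passed, Il18rap differed by 2.19 (adjusted p = 5.78e-05), and the call held without any 1 library. Il18rap was called lower with time in CX3CR1+ macrophages and was not called in F4/80- cells. Against neutrophils, 7.66% of tested genes passed and 14 list genes did. Each difference (change in F4/80- cells minus change in neutrophils) was positive, which concerns the change over time and not the level. They were Pdcd1lg2 (3.69, adjusted p = 0.0304), Klf4 (2.10, adjusted p = 0.000483), Egr2 (2.06, adjusted p = 0.0021), Il13ra1 (1.90, adjusted p = 0.000126), Fyn (1.81, adjusted p = 0.00324), Plcg1 (1.78, adjusted p = 0.0129), Cish (1.69, adjusted p = 0.0255), Csf2rb2 (1.57, adjusted p = 0.00164), Cebpa (1.55, adjusted p = 0.0336), Lat2 (1.51, adjusted p = 0.00678), Jak3 (1.51, adjusted p = 0.000254), Mitf (1.48, adjusted p = 0.0119), Runx1 (1.07, adjusted p = 0.000544) and Stat6 (1.05, adjusted p = 0.00495), all by edgeR. Among these genes, Csf2rb2, Mitf, Jak3, Stat6, Il13ra1, Klf4, Cish, Egr2 and Pdcd1lg2 were called lower with time in neutrophils (background 10.4%). In F4/80- cells Cebpa alone of them was called with time, higher, and Cebpa and Runx1 were not called in neutrophils. Over the 19 differences, 9 held without any 1 library. Those against neutrophils that did not were Plcg1, Mitf, Cebpa, Cish, Stat6, Runx1 and Pdcd1lg2, and Cebpa and Pdcd1lg2 were kept in 1 of 8 such fits and Cish in 2. Groups of 2 libraries are too small for a test of outlying samples.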

How the results depend on the processing

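Of 168 recomputed counts of called members, 148 stayed within 1.5 times the reported count and 20 did not. Requiring the CPM minimum in every group left 7687 genes and 1 member, Hdc, so the counts became 1 in CD9+ macrophages and 0 in F4/80- cells over time, 1 and 0 for F4/80- cells against CD9+ macrophages on days 1 and 14, and 1 on each day against CX3CR1+ macrophages, against neutrophils and for CD9+ against CX3CR1+ macrophages. In the change over time, the 5 calls in CD9+ macrophages became 1 with only the 2 groups compared and ranged from 1 to 8 when a library was left out. The 1 call in F4/80- cells became 0 with DESeq2 and without any 1 library (0 to 0), and the 0 calls in neutrophils became 0 to 1. The 12 basophil genes outside the members gave, in CD9+ macrophages over time, 1 call with only the 2 groups compared, 5 with no minimum fold change and 1 to 5 without a library. In CX3CR1+ macrophages the count of 2 became 4 with DESeq2, 1 with the CPM minimum in every group, 4 with no minimum fold change and 1 to 2 without a library. In F4/80- cells it was 1 with no minimum fold change, and in neutrophils it was 1 with the CPM minimum in every group, 6 with no minimum fold change and 1 to 2 without a library, against 3. Between populations, the CPM minimum in every group, which removes most of these genes from the test, gave 2 and 0 calls for F4/80- against CD9+ cells on days 1 and 14, 2 and 2 against CX3CR1+ macrophages, 5 and 4 against neutrophils and 2 and 2 for CD9+ against CX3CR1+ macrophages. Scaling by library size alone gave 5 calls against neutrophils on day 1, and the count for F4/80- against CD9+ cells on day 14 was 3 to 5 without a library. Among 364 log2 fold changes under all alternatives, 1 reversed: Ms4a2 in F4/80- cells over time was 0.24 and ranged from -0.0188 (without replicate 2 of day 1) to 0.517 when a library was left out. Of the rest, 4573 kept direction and side of the threshold, 325 lost and 6 gained a call. Where no cause is named, the cause was not tested.

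Replicate numbers were not taken to pair libraries, since no source says so and same-numbered libraries of a day had correlations of their deviations between 0.0131 and 0.144. With the number as a replicate block within each day, the count of called members in CD9+ macrophages over time went from 5 to 4 and the other 11 counts were equal, and the log2 fold change of Il4 there (1.67) lost its call.

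Scaling by library size alone shifted the median difference of all tested genes (log2) by 0.18 in CD9+ macrophages over time (58.5% to 72.9% of calls higher), by 0.24 for F4/80- against CD9+ cells on day 1 (42.3% to 60.6%), by 0.53 and 0.51 against neutrophils (57.1% to 75.2% and 58.6% to 77.5%) and by -0.20 for CD9+ against CX3CR1+ macrophages on day 1 (74.5% to 55.0%), and the upper quartile by -0.15 against neutrophils on each day. Of the 10 genes most like Mcpt8, 5 recurred with Spearman's rho, 9 with a prior count of 0.5 and 0 without the neutrophils, and of the 5 most like Il4, 1, 3 and 0 did. Depth limits the CX3CR1+ and neutrophil values of most members and Il13 in every group.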
